A study of Mus musculus with 12 samples.

Results

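The histone genes described here are the protein-coding genes of 3 deposited RNA-seq tables whose names, as the tables give them, begin with Hist1h to Hist4h, H2af, H3f3 or H1f. Of the 10289 genes that the tables list in all, 6 have such a name, namely H3f3b, H3f3a, H1f0, H1f10, H1f2 and H1f4. The tables use newer symbols for most histone genes, and matching Ensembl identifiers to the older GENCODE M21 symbols found 12 more, so that 18 histone genes of the 82 annotated ones are described. They were kept apart as 9 variant genes and 9 replication-dependent genes, the latter being those with an older Hist name.

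The cells were C2C12, a mouse myoblast line that proliferates in growth medium (GM) and fuses into myotubes after serum is lowered. The 8 RNA-seq libraries came from 4 groups of 2 libraries, which were GFP-overexpressing cells in GM (day 0), GFP-overexpressing cells after 4 days in differentiation medium (D4), METTL3-overexpressing cells at day 0 and METTL14-overexpressing cells at day 0. GFP was the negative control, and METTL3 and METTL14 are subunits of the complex that writes N6-methyladenosine (m6A) into mRNA. The METTL14 libraries carry day 0 in their titles and D4 in their time point field, and the title was followed. Another 4 libraries, an input and an m6A immunoprecipitate of GFP cells at day 0 and at D4, were not analysed here.

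The tables give 1 level per gene, the authors' mean normalized count, pooled over libraries. For a gene listed in several tables this mean was the same in each, so it is not a level of any group, and it carries no SD and no n. By title, GFP cells at D4 were the only RNA-seq group in differentiation medium. A mean over all RNA-seq libraries therefore weighs growing cells more. No value per library is given and the depth is unknown from the tables, so no difference between GM and D4 or between METTL3, METTL14 and GFP cells could be tested anew. The authors' own fold changes and test results, which the tables also hold, were not used. By comparison, only whether the authors listed a gene, at a false discovery rate of at most 0.05, is described, and no direction is given for any gene. A gene that is not listed has neither a level nor a call.

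Histones are the proteins around which DNA is wrapped. The core particle holds H2A, H2B, H3 and H4, and linker histone H1 binds where DNA enters and leaves it. Replication-dependent histone genes lie in clusters, are used mainly in S phase, and give mRNAs that usually end in a conserved stem-loop in place of a poly(A) tail. Variant histone genes mostly lie alone, are used throughout the cell cycle and in cells that no longer divide, and usually give polyadenylated mRNAs. When myoblasts leave the cell cycle to differentiate, the demand for newly made replication-dependent histones ends. The labels state total RNA for the RNA-seq libraries and do not say whether poly(A) RNA was selected, which bears on how stem-loop mRNAs are measured.

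The stem-loop is shown first, because it is the sequence that sets the replication-dependent genes apart. Its letters were searched in the 200 bases of genome after each stop codon. It was found in 65 of the 67 annotated replication-dependent genes (97.0%), in 1 of the 15 annotated variant genes (6.67%) and in 70 of 21664 protein-coding genes (0.323%). Among the listed genes it followed 8 of the 9 replication-dependent genes, all but H2bc21. The 1 variant with a match was H2ax. The sites of 4 of these genes are given below from GRCm38, on the strand of the gene, with the 16 bases of the stem-loop in capitals and 5 bases on each side. They are the listed replication-dependent H1 and H2B genes with the highest mean normalized counts, the only listed H4 gene, and H2ax.
H1f2: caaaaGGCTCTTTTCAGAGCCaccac
H2bc4: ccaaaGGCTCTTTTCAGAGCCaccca
H4c14: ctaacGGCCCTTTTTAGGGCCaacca
H2ax: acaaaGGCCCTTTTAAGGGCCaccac
The site of H1f2 lies at chr13:23739507-23739532 on the plus strand and begins 25 bases after the stop codon. The site of H2bc4 lies at chr13:23684642-23684667 on the plus strand and begins 35 bases after the stop. H1f2 and H2bc4 carry the same 16 letters, which H2aw, H2bc6, H3c15, H1f4 and H2ac6 carry as well. The H4c14 site, at chr3:96262934-96262959 on the minus strand, and the H2ax site, at chr9:44335235-44335260 on the plus strand, share another stem and differ from each other in their loops.

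Variant genes made up nearly all of the summed mean normalized count of the listed histone genes. The mean normalized counts of the 18 listed genes summed to 14761, of which the 9 variants held 95.1% and the 9 replication-dependent genes 4.88%. The median was 1158 for the variants, with a range of 78.3 to 5702, and 18.7 for the replication-dependent genes, with a range of 7.49 to 383. Over the 8817 protein-coding genes of the D4 table the median was 557 and the quartiles were 186 and 1274. Of the variants 6 of 9 were above that median and 1 was under the lower quartile, and of the replication-dependent genes 0 of 9 were above the median and 7 were under the lower quartile. By class, H3 genes held 46.6% of the sum, H2A genes 27.7% and H1 genes 23.9%. H2B genes held 1.80% and the H4 gene 0.0979%, in classes to which the name rule gives no variants. These shares cover listed genes alone, and the 64 histone genes that no table lists are not in them. Listing took 9 of the 15 annotated variants against 9 of the 67 annotated replication-dependent genes, so the shares do not describe all histone mRNA of the cells. Coding identity to the nearest annotated gene of the same class was 83.7% to 100% for the listed replication-dependent genes. For the listed variants it was 56.3% to 83.0%. Reads shared between genes, and any poly(A) selection, could lower the counts of the replication-dependent genes, which was not tested.

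**Figure D1:**
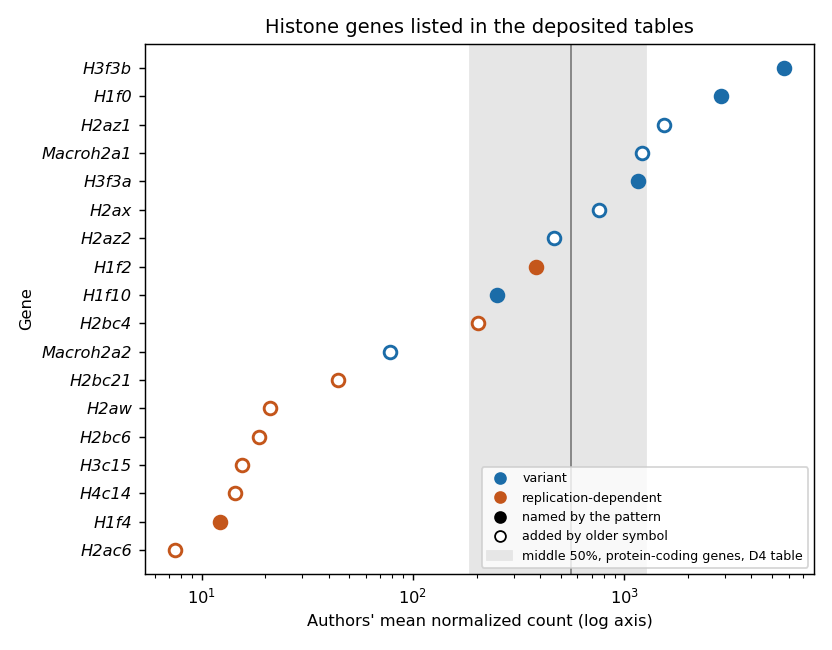
Authors' mean normalized count (x axis, log scale) of each of the 18 listed histone genes (y axis), 1 pooled value per gene and therefore no error bar; blue marks variant and orange replication-dependent genes, filled points the 6 genes found by name and open points the 12 added by older symbol. The grey band is the middle 50% of protein-coding genes in the D4 table (186 to 1274) and the grey line their median of 557; 7 of the 9 orange points lie left of the band.

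H3f3a and H3f3b encode the same protein, the replacement histone H3.3, which is deposited outside replication. Their 136-residue products (initiator methionine included) are 100% identical, while their coding sequences agree at 76.7% of positions. H3f3b, at chr11:116021912-116027962 on the minus strand, had a mean normalized count of 5702, the highest of all listed histone genes. H3f3a, at chr1:180800832-180813943 on the minus strand, had 1158. Per kilobase of exon, the scale on which levels are compared between genes here, H3f3b stood at 1916 and H3f3a at 331, a ratio of 5.80. H3f3a overlaps the antisense gene H3f3aos, and whether the counting used strand is not given in the sources used here. The only listed replication-dependent H3 gene, H3c15 at chr3:96238108-96239127 on the minus strand, had a mean normalized count of 15.6 and 15.3 per kilobase. Its protein differs from H3.3 by 4 residues, A31S, S87A, V89I and M90G, with the H3c15 residue first and positions counted from the residue after the initiator methionine. The coding sequence of H3c15 is identical to that of its unlisted neighbour Hist2h3c1, so reads could have been split between them.

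The linker histones were the class with the most members found by name, 4 genes, because their newer symbols also match the name pattern. By identifier the H2A class was larger, with 7 listed genes, of which 0 were found by name. H1f0 encodes H1.0, a linker histone that accumulates in differentiated and resting cells. H1f0, at chr15:79028450-79030504 on the plus strand, had the second highest mean normalized count of the listed histone genes, 2875. H1f2, a replication-dependent gene in the chromosome 13 cluster at chr13:23738808-23740367 on the plus strand, encodes H1.2 and had 383. H1f10 encodes the variant H1.10 and had 251, at chr6:87980421-87981637 on the minus strand. The H1f10 gene overlaps Gm47286 on the same strand and Gm5577 on the opposite strand, so its count is uncertain. H1f4, which encodes H1.4 and lies at chr13:23620629-23622558 on the minus strand, had 12.2. Per kilobase of exon these were 1399 for H1f0, 246 for H1f2, 206 for H1f10 and 6.33 for H1f4. H1f0 therefore stood 5.69 times above H1f2, a ratio that was 8.19 per kilobase of coding sequence and 7.50 without the length. H1f0 stood 6.79 times above H1f10, a ratio that was 11.1 per kilobase of coding sequence and 11.5 without the length. H1f2 stood 38.8 times above H1f4. H1f2 and H1f10 were neighbours in this order at a ratio of 1.19, and with no spread over libraries their order could not be tested. H1f2 and H1f4 proteins are 82.3% identical, whereas H1f2 shares 46.6% with H1f0 and 38.1% with H1f10.

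The H2A class held 7 listed genes, 5 of them variants. H2az1 and H2az2 encode the isoforms of H2A.Z, a variant found at promoters and regulatory elements, and their proteins differ by 3 of 128 residues, T14A, S38T and V127A, with the H2az1 residue first. H2az1 had a mean normalized count of 1545 and 870 per kilobase, and H2az2 had 463 and 283, which is a ratio of 3.07 per kilobase. H2ax encodes H2A.X, which is phosphorylated beside DNA breaks. Its mean normalized count was 759, or 548 per kilobase. Macroh2a1 and Macroh2a2 encode H2A variants with a large C-terminal macro domain, known for transcriptional silencing, and their proteins are 66.9% identical. Macroh2a1 had a mean normalized count of 1210 and Macroh2a2 had 78.3. Macroh2a1 has 6809 bases of annotated exon against 2175 for Macroh2a2, and per kilobase of exon they stood at 178 and 36.0, a ratio of 4.93. The ratio was 14.3 per kilobase of coding sequence and 15.4 without the length. Per kilobase of the longest annotated transcript they stood at 301 and 36.0, so the ratio depends on the length used. The replication-dependent H2A genes H2aw and H2ac6 had 20.97 and 7.49, or 9.77 and 3.02 per kilobase. H2aw overlaps Trim17 and H2ac6 overlaps Gm24991, each on the same strand, so these counts are uncertain.

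All 18 annotated H2B genes and 13 annotated H4 genes under the name rule carry an older Hist name. The rule therefore allows no variant in these classes, and only replication-dependent genes could be described. H2bc4, at chr13:23684199-23692908 on the plus strand, had a mean normalized count of 203 and 176 per kilobase. Among the listed replication-dependent genes its mean count was second to that of H1f2. H2bc21 on chromosome 3 had 44.4, or 16.9 per kilobase. H2bc6 had 18.7, or 4.21 per kilobase, and its annotated gene spans 37455 bases and covers H1f4 on the same strand, so the counts of both are uncertain. The H2bc4 and H2bc6 proteins are identical and their coding sequences agree at 98.4% of positions, so reads could also be shared between these genes. H4c14, on chromosome 3, had 14.5, or 8.87 per kilobase. Its protein is the same as that of 12 other annotated H4 genes, none of which a table lists.

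**Figure D2:**
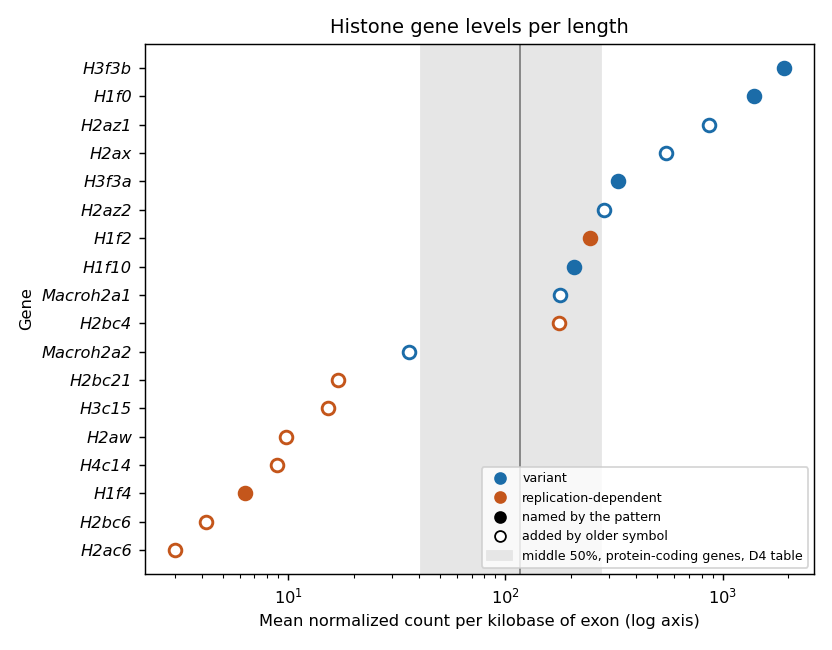
The same 18 genes (y axis) by mean normalized count per kilobase of annotated exon (x axis, log scale), with the symbols, grey band and grey line as for the plot of mean counts; the band runs from 40.9 to 276 and the line is at 117. H3f3b (1916), H1f0 (1399) and H2az1 (870) lead, and H1f2 (246) and H2bc4 (176) are the 2 replication-dependent genes above the line.

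Per kilobase of exon the median level was 331 for the variants and 9.77 for the replication-dependent genes. On this scale, 8 of the 9 variants were above the median of the protein-coding genes of the D4 table (117 per kilobase), Macroh2a2 being the exception. Of the 9 replication-dependent genes 2 were, H1f2 and H2bc4. Reads shared between genes and any poly(A) selection could lower the replication-dependent levels on this scale as well. H3f3a and H2ax changed places, since H3f3a had the higher mean normalized count and 0.603 of the level of H2ax per kilobase of exon. Per kilobase of coding sequence the order turned back, with H3f3a at 1.605 times H2ax.

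Whether histone genes were listed differed by kind and by table. The D4 table, which sets D4 against GM in GFP cells, listed all 18 genes, or 22.0% of the 82 annotated, where 40.1% of the 21951 annotated protein-coding genes were listed. Of the 15 annotated variants it listed 9 (60%), and of the 67 replication-dependent genes 9 (13.4%), so variants lay above and replication-dependent genes below the share of all genes. The 6 variants that were not listed were H1foo, H1fnt, H2afj, H2afb1, H2afb2 and H2afb3. The authors' filter on low counts and unlisted levels are not in the tables, so a gene that did not differ and a gene that was hardly detected cannot be told apart. All 18 genes were in the D4 table, and none was listed for METTL3 or METTL14 alone. The D4 table held 9823 of the 10289 genes listed in all, so this is the general pattern and not a trait of histone genes.

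The METTL3 table, METTL3-overexpressing against GFP cells in GM, listed 3 of the 82 histone genes (3.66%) against 7.8% of annotated protein-coding genes. These 3 were H1f2, H2ax and Macroh2a1. The METTL14 table listed 5 (6.1%) against 4.91% of annotated protein-coding genes, namely the same 3 genes together with H3f3a and H2bc4. Both comparisons use the GFP libraries at day 0 as their control, which the D4 comparison uses too, so the 3 tables are not independent of each other. The genes in all 3 tables comprise a linker histone, the DNA damage variant and a macroH2A, and their mean normalized counts were 383, 759 and 1210. The share of all genes found in all 3 tables is not given here, so the overlap of these 3 genes is only described. H1f0 and H3f3b, the listed histone genes with the highest levels, were in the D4 table only. So were most genes of that table, which holds 9823 genes against 1754 for METTL3 and 1102 for METTL14.

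**Figure D3:**
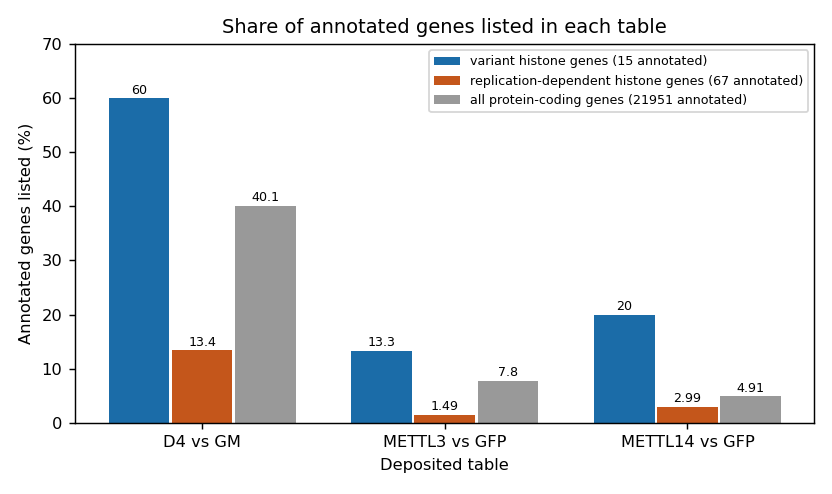
Percent of annotated genes listed (y axis, from 0) in each deposited table (x axis) for the 15 variant histone genes (blue), the 67 replication-dependent histone genes (orange) and all 21951 protein-coding genes (grey); the bars are shares of genes and have no error. In the D4 comparison 60% of variants and 13.4% of replication-dependent genes were listed beside 40.1% of all genes.

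The listed replication-dependent genes shared a feature of their annotation. It is not independent of the listing, because reads were counted over annotated genes. All 9 had more than 1000 bases of annotated exon, between 1020 and 4446 with a median of 1930. Of the 58 that were not listed 9 exceeded 1000 bases, and their median was 522. Outside the coding sequence the medians were 1321 and 124 bases. In the 8 listed genes with a stem-loop, the annotated gene went on for 377 to 8246 bases beyond it, with a median of 1450. In 57 unlisted genes with a stem-loop the median was 35 bases, and 19 of these genes went on for more than 100 bases. A longer annotated exon also collects more reads at the same level per length, and its part in the listing was not tested. H1f2 went on for 840 bases beyond its stem-loop, H2bc4 for 8246 bases including intron, and H2ax for 822 bases.

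**Figure D4:**
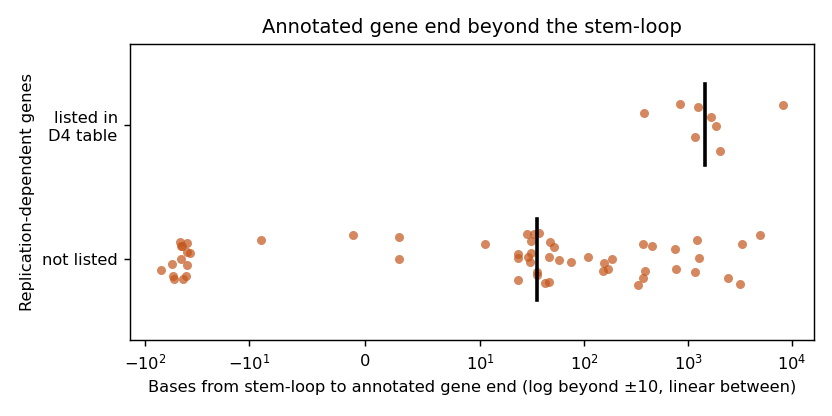
Bases from the end of the stem-loop to the annotated gene end (x axis, log scale beyond 10 in either direction and linear between, introns included) for 57 unlisted and 8 listed replication-dependent genes, 1 point per gene with random vertical spread; black bars are medians of 35 and 1450. Points below 0 are genes whose annotated end lies before the end of the stem-loop, and all 8 listed genes lie at 377 or more.

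By position, 5 of the 9 listed replication-dependent genes came from the 54 of the large cluster on chromosome 13, 3 from the 10 on chromosome 3 and 1 from the 2 on chromosome 11. The single gene on chromosome 6 was not listed. H2ac6 and H2bc4 are neighbours on opposite strands, with their starts facing away from each other across 250 bases. H2bc4 stood 58.2 times above H2ac6 per kilobase of exon, 28.0 times per kilobase of coding sequence and 27.1 times without the length. The H2ac6 coding sequence is 99.0% identical to that of the unlisted Hist1h2ag, and the H2bc4 coding sequence 98.9% to that of the unlisted Hist1h2bj. Reads could therefore have been shared with these genes, which makes the ratio uncertain.

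Promoter windows from RefSeq, 250 bases before to 50 bases after the start, were matched for 14 of the 18 genes. H2ax, H2bc4, H2bc21 and H4c14 had no entry. The letters CCAAT, on either strand, were found in 6 of 6 replication-dependent and 5 of 8 variant promoters, and in 41.1% of the 27025 promoters in the table. ATTTGCAT, the octamer known from H2B promoters, was found in 3 of 6 and 1 of 8, and in 1.97% of all promoters. TATAAA was found in 2 of 6 and 1 of 8, and in 15.7% of all promoters. These matches are a description of letters and not of bound sites. In the sequences given below, no match overlaps another. Among the 6 genes found by name, CCAAT was in 4, TATAAA in 2 and ATTTGCAT in 1, the last being H3f3b.

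The promoter of H3f3b is shown because H3f3b is the listed histone gene with the highest level and its window holds all 3 motifs. These are 4 CCAAT, 1 ATTTGCAT read on the other strand and 1 TATAAA. That of H1f2 is shown because H1f2 is the replication-dependent gene in all 3 tables. The interval between H2ac6 and H2bc4 is shown because both genes start at its ends. Motifs on either strand are in capitals.
H3f3b: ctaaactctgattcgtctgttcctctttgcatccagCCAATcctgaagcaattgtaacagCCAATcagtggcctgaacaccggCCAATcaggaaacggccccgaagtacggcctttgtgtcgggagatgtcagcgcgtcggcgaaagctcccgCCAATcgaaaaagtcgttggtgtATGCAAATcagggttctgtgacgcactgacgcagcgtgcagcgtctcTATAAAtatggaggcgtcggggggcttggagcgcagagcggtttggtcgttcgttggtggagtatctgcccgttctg
H1f2: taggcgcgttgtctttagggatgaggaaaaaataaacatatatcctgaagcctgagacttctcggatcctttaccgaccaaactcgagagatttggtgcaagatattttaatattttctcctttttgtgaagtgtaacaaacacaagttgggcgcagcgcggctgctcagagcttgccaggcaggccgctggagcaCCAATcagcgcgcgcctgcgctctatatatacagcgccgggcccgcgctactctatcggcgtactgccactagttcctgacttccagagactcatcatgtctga
H2ac6 to H2bc4: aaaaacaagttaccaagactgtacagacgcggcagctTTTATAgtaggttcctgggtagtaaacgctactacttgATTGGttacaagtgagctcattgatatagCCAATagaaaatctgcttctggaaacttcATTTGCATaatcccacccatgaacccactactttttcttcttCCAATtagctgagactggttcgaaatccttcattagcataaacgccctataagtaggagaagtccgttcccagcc
The H3f3b window is chr11:116024455-116024754 on the minus strand and the H1f2 window is chr13:23738557-23738856 on the plus strand, both from RefSeq on GRCm38.p6. The H3f3b window is set at the RefSeq start, which lies inside the GENCODE gene. The interval between H2ac6 and H2bc4 is chr13:23683949-23684198 of GRCm38, on the plus strand. It holds 3 CCAAT, 1 ATTTGCAT and 1 TATAAA. The H1f2 window holds 1 CCAAT and neither of the other sequences as searched.

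Genes that make histone mRNA or handle histone proteins were looked up in the same tables, in which 40.1% (D4), 7.8% (METTL3) and 4.91% (METTL14) of all annotated protein-coding genes were listed. Of 11 genes for histone mRNA production, 7 were in the D4 table and 0 in the METTL3 and METTL14 tables. Their highest mean normalized counts were 1753 for Sympk and 1461 for Cpsf2, both subunits of the cleavage complex, 862 for Eri1, the exonuclease that trims histone mRNA ends, and 600 for Npat, the coactivator of replication-dependent histone genes. Slbp, the protein that binds the stem-loop, had 540. Of 24 histone chaperones and exchange factors, 19 were in the D4 table, 2 in the METTL3 table and 1 in the METTL14 table. Asf1b, a chaperone of H3 and H4, was in all 3 tables with a mean normalized count of 1032, and Vps72, a subunit of complexes that deposit H2A.Z, was in the D4 and METTL3 tables with 889. The highest means on this list were 7525 for Nap1l1, 4867 for Ssrp1, 3406 for Rbbp7 and 3293 for Rbbp4.

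Marker genes of the labelled cell type and of other cell types were looked up as well. Their counts are to be read against the same shares of all protein-coding genes (40.1% for D4, 7.8% for METTL3 and 4.91% for METTL14). Listing marks a difference between groups and the mean is pooled over them, so neither can verify the cell type. All 5 myotube markers were in the D4 table, among them Myh3 with a mean normalized count of 40372 and Acta1 with 53546. Of 6 myoblast markers 4 were in the D4 table, 6 in the METTL3 table and 3 in the METTL14 table, and Des, which was in all 3 tables, had 24157. Of the myotube markers, 1 was listed for METTL3 and 2 for METTL14. The endothelial marker Pecam1, the haematopoietic marker Ptprc and the adipocyte marker Adipoq were in none of the tables, which gives no level for them.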

How the data were processed

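RNA-seq libraries of C2C12 cells were grouped by their GEO titles (2 libraries in each of 4 groups). Per the study's methods, the authors used hisat2 for alignment to the GRCm38 genome, featureCounts with Ensembl annotation 102 for gene counts and DESeq2 for the comparisons. How reads matching several genes were treated is not given in the sources used here. The deposited value used, a mean normalized count, is a signal averaged by the authors across libraries once size factors had been applied. It was used as deposited. The other numeric columns hold the authors' fold changes, standard errors, test statistics and p-values, and were not used. Columns of per-sample values left unused numbered 0. A gene counted as listed when a table held its identifier.

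Genes were matched by Ensembl ID to GENCODE M21 (GRCm38) for older symbols, coordinates, exon unions, coding sequences and translations. Levels were divided by this exon union in kilobases. The authors counted reads on another annotation, Ensembl 102, so the exon lengths may differ from those counted, which affects every level and ratio per kilobase. Pairwise identities came from global alignments, counted over aligned columns. The stem-loop search covered 200 bases after the stop codon, and motifs were searched on both strands of RefSeq promoters. Search and alignment functions were tested on simulated sequences. Python 3.11.15, pandas 2.3.3, NumPy 2.4.6, Biopython 1.88, pysam 0.24.0 and matplotlib 3.10.9 were used.

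Named genes were all variants and, in each class, the 3 replication-dependent genes with the highest means, which covered every listed one. From each supporting list up to 4 genes with the highest means were named, and Slbp, Asf1b and Vps72 were named after their values were seen. The members and lists were chosen with earlier results of these data known. Alternatives were other symbols, gene types, minimum means, gene lengths, promoter windows and strands.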

Additional observations from a re-analysis of the deposited data

How the results depend on the processing

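Matching newer symbols, or older symbols by Ensembl ID, in place of the names as given raised the number of histone genes found from 6 to 18 and 18. With the newer symbols the median mean normalized count fell from 198 to 18.7 for replication-dependent genes and from 2016 to 1158 for variants. Any gene type gave 6 genes, and a minimum mean of 10 or 100 gave 6 or 5. Dividing by coding length in place of the exon union gave 13976 per kilobase for H3f3b, 4939 for H1f0, 2839 for H3f3a, 603 for H1f2, 445 for H1f10 and 18.6 for H1f4, all higher since the divisor is smaller by construction. The order of these 6 genes was the same, but H3f3a moved from 0.603 to 1.605 times H2ax. With motifs read on the gene's strand only, the share of the 6 promoters with ATTTGCAT went from 16.7% to 0. The other 16 alternative values stayed within 1.5 times the reported one, a limit used because no spread between replicates is known. No paired analysis was possible because the tables hold no value per library, and for the same reason no library could be left out.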
